A study of Mus musculus with 96 samples.

Results

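Per1, Per2 and Per3 are the 3 Period genes of the mouse, and they were taken by symbol from a count table of 55421 gene identifiers. All 3 were found and all 3 passed the filter on low counts, which left 15772 genes for testing. They were measured by RNA sequencing of polyadenylated liver RNA in 96 libraries, from mice aged 12 to 16 weeks. The libraries covered 2 lines, 2 genotypes per line, 2 feeding regimens and 6 times of day, spaced by 4 h and given as zeitgeber time (ZT, counted from lights on). The study crossed the loss of a clock activator or of clock repressors with the timing of food, which lets a daily rhythm be read with and without a working clock.

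The 8 groups held 12 libraries each, with 2 libraries per group and time. Bmal1 WT and Bmal1 KO are the wild type and knockout of Bmal1, the gene listed as Arntl, whose protein pairs with CLOCK to switch on clock genes. Cry WT and Cry KO stand for the labels' Cry1/2_WT and Cry1/2_dKO, the wild type and the double knockout of the repressors CRY1 and CRY2. AL mice ate ad libitum and RF mice ate only at night. The labels name neither the alleles nor the cells in which they are deleted, and no label says which animal gave which library, so the p-values rest on the scatter among libraries, which may be technical. In each group the libraries form 2 numbered replicate series of 6, one library per time.

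PER proteins enter the nucleus with the CRY proteins and repress CLOCK and BMAL1, which drive the Period genes themselves through E-box sequences. Period transcripts are therefore both a product and a part of the clock's feedback loop, and in liver they normally swing strongly through the day. Per1 and Per2 also respond directly to outside signals such as glucocorticoids, cAMP acting through CREB, temperature and heat shock factor 1 (HSF1), and feeding, whereas Per3 is dispensable for the core loop and follows it closely.

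The libraries held 1478963 to 35568856 counts each (median 25422366). Of the 96 libraries, 3 were shallow, with 1478963 to 3181499 counts, and 7 others stood apart by high levels of Saa1, Isg15 or Ctrb1, which mark the acute phase, interferon and exocrine pancreas. Levels are given in CPM, the TMM-normalised count scaled to a common library size. All 8 hepatocyte markers, such as Alb and Hnf4a, were present in every library. The summed level of these 8 markers, of which Alb is the largest part, was lower in Bmal1 KO AL (33972 to 55350 CPM) than in Bmal1 WT AL (78282 to 125404 CPM) with no overlap, and under RF the ranges were 37936 to 55786 CPM in the KO and 52978 to 99351 CPM in WT. Of the 8 markers 2 were called lower in Bmal1 KO under AL, Alb by 1.77 ± 0.14 log2 and Ttr by 0.54 ± 0.14, and 1 under RF, Alb by 1.27 ± 0.14, with 0 higher and median effects of -0.24 and -0.12 log2. Of all genes 10.7% were called lower in the KO under AL and 10% under RF. Beside those shares the counts are not read as a loss of hepatocyte markers as a set. The 30 tested markers of other cell types summed to between 481 and 1872 CPM over all libraries. In whole tissue, fewer cells of a type and less RNA per cell cannot be told apart.

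The targeted genes were read over the whole gene, so reads from any undeleted part still count. Cry1 under AL ranged from 5.38 to 9.95 CPM over the Cry KO libraries and from 5.95 to 51.4 CPM over those of Cry WT. It was lower on average by 1.32 ± 0.12 log2 under AL and 1.31 ± 0.12 under RF (adjusted p = 7.04e-13 and 2.55e-12). Cry2 under AL ranged from 17.8 to 26.6 CPM in the KO and from 18.9 to 56.8 CPM in WT, and it was lower by 0.64 ± 0.09 and 0.83 ± 0.09 log2 (adjusted p = 1.45e-07 and 3.91e-10). Arntl was not called as lower in Bmal1 KO: averaged over the times its difference from WT was 0.30 ± 0.14 log2 under AL (adjusted p = 0.104), and under RF it was higher by 0.64 ± 0.14 log2 (adjusted p = 3.36e-04). These counts therefore do not check the Bmal1 KO labels. The lowest Arntl level under AL was 9.71 CPM in the KO and 0.272 CPM in WT, and the range of a fitted 24 h cosine was 0.03 ± 0.53 log2 in the KO and 4.92 ± 0.58 log2 in WT.

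The genes lie on mm10 chromosome 11, 69095217 to 69109960, plus strand (Per1, ENSMUSG00000020893), chromosome 1, 91415982 to 91459324, minus strand (Per2, ENSMUSG00000055866), and chromosome 4, 151003652 to 151044665, minus strand (Per3, ENSMUSG00000028957). Per3 lies inside the span of Camta1 on the same strand with no shared exon, and Per1 and Per2 overlap no other gene. Promoter windows, the 250 bases before a RefSeq transcription start (GRCm38.p6), were found for Per1 (2 starts) and Per3 (1 start). They are shown because E-boxes, cAMP response elements and D-boxes are sequences through which the clock and outside signals are known to reach clock genes. No test here links these letters to a response. Capitals mark matches, on either strand, to the E-box CACGTG, the core TGACG of the cAMP response element bound by CREB, and the D-box core TTATGNAA, which the factors DBP, TEF, HLF and NFIL3 bind. The first Per1 window is chr11:69098699-69098948, plus strand, and the Per3 window is chr4:151044666-151044915, minus strand, both written 5′ to 3′ along the gene.
Per1: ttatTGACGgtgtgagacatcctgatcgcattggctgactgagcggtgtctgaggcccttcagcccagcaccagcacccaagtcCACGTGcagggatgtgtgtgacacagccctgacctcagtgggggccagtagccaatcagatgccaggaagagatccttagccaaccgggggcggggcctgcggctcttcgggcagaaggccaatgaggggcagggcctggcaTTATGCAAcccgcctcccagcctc
Per3: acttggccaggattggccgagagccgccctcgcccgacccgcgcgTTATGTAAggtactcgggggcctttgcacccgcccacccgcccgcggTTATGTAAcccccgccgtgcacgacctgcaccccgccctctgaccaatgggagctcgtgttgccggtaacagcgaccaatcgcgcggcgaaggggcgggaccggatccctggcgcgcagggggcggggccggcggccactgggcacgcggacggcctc
The Per1 window held 1 E-box, 1 CRE core and 1 D-box core, and the second Per1 window (chr11:69099902-69100151) held 1 CRE core. The Per3 window held 2 D-boxes of the full form TTATGTAA and no E-box. Over 32851 promoter windows, 6.02% held an E-box, 17.8% a CRE core, 3.07% a D-box core and 0.819% the full D-box. Only 6 of 27025 genes (0.0222%) had 2 or more full D-boxes. A match describes the letters in the window and is not a binding site.

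In WT liver all 3 genes swung strongly. Per1 in Bmal1 WT AL spanned 1.24 to 53.9 CPM with a median of 23.7, and in Cry WT RF it spanned 1.47 to 89.1 CPM with a median of 28.6. Its low point was at ZT4 in all 4 WT groups (means of 1.68 to 4.84 CPM) and its high point at ZT12 (50.5 to 77.6 CPM). The ratio between these points was 10.4 in Bmal1 WT AL, 37.6 in Bmal1 WT RF, 23.5 in Cry WT AL and 46.2 in Cry WT RF. Per2 followed later: it was lowest at ZT4 (6.42 to 15.3 CPM) and highest at ZT16 (90.2 to 156.7 CPM) in every WT group. In Cry WT RF, for example, both ZT16 libraries, at 154 and 160 CPM, lay above all others of the group. Per3 was lowest at ZT0 or ZT4 (2.02 to 3.81 CPM) and highest at ZT12, or at ZT8 in Cry WT RF (51.0 to 71.6 CPM). In Cry WT AL its 4 libraries at ZT0 and ZT4 lay between 2.22 and 2.67 CPM and those at ZT8 and ZT12 between 50.5 and 72.4 CPM.

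A 24 h cosine was fitted to each group by edgeR's quasi-likelihood method, and a rhythm was called with a Benjamini-Hochberg adjusted p under 0.05 over all genes and a fitted distance from trough to peak (its range) of 0.5 log2 or more. All 12 pairs of a Period gene and a WT group were called, where 9.97% (Bmal1 WT AL), 12.8% (Bmal1 WT RF), 6.67% (Cry WT AL) and 18.9% (Cry WT RF) of all genes were. Fitted ranges were 3.26 to 4.96 log2 for Per1, 2.88 to 3.31 for Per2 and 4.04 to 5.26 for Per3. The peaks came in the order Per3 (ZT 12.3 to 12.9), Per1 (13.2 to 14.5) and Per2 (14.8 to 16.1), with SEs of 0.35 to 0.70 h, and the ranges of the 3 genes over the WT groups did not overlap. The difference in peak time between genes was not tested. The Per1 rhythm of Bmal1 WT AL rested in part on series 8, whose lowest library was at 1.24 CPM against 8.43 CPM in series 1. Without series 8 its range was 2.55 log2 and its adjusted p 0.263.

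**Figure D1:**
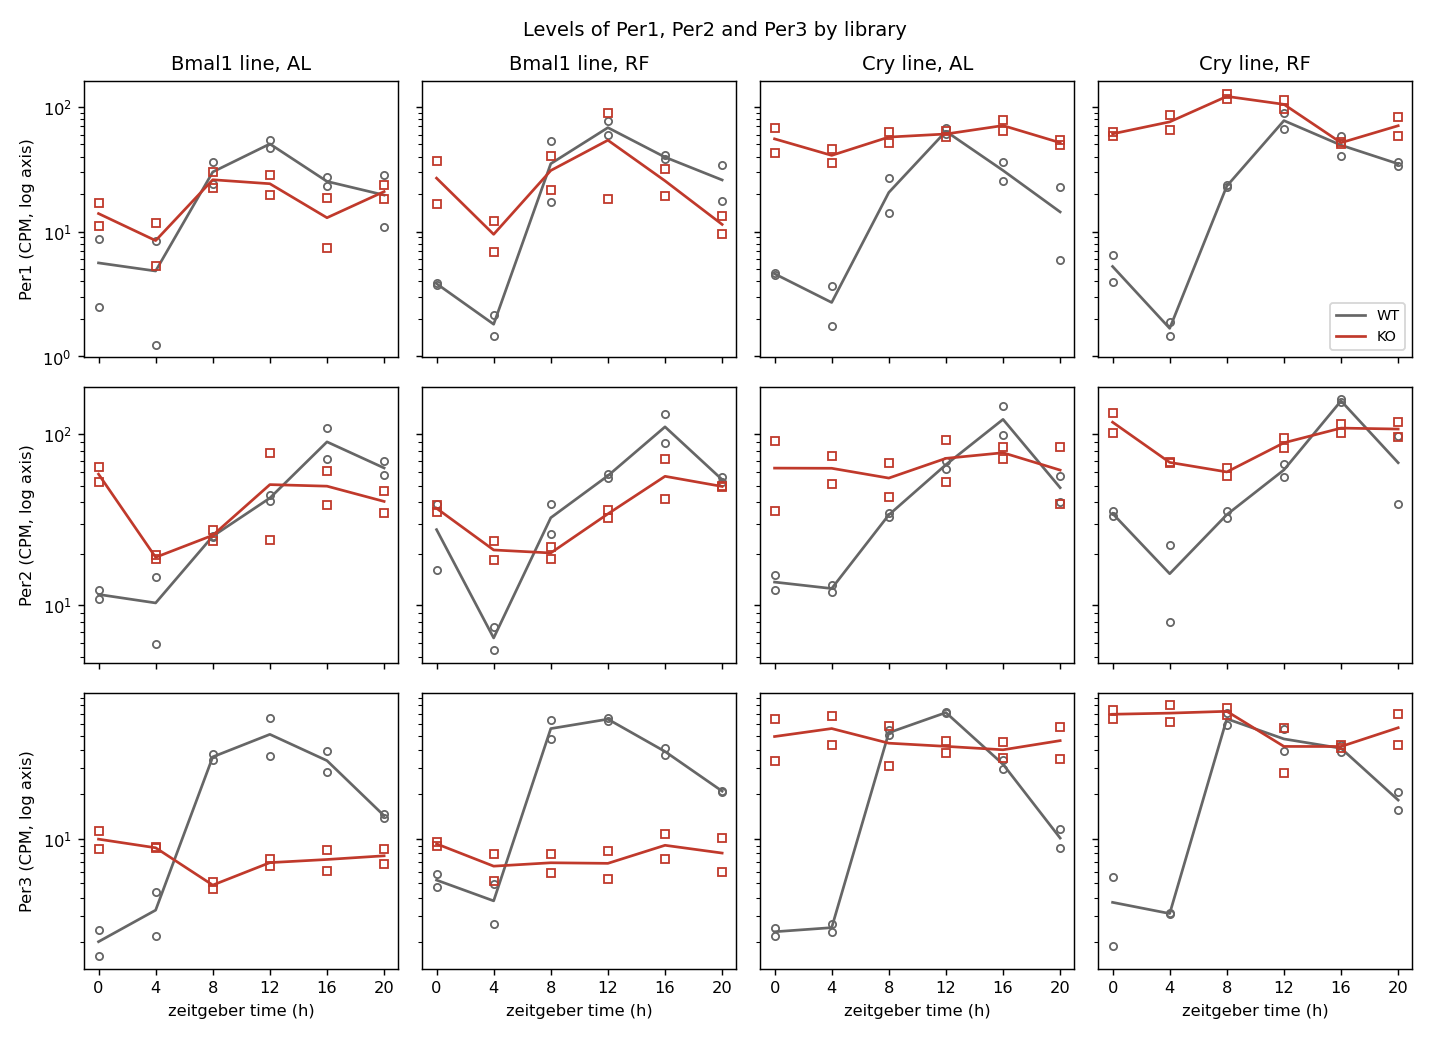
Level (CPM, log axis) of Per1, Per2 and Per3 against zeitgeber time (h) in the 4 pairs of WT (grey circles) and KO (red squares) groups. Each symbol is a library and lines join the means of the 2 libraries per time. WT lines reach their lowest points at ZT0 or ZT4, where the Cry KO libraries of all 3 genes lie above the Cry WT libraries of the same regimen and time.

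The morning rise and the late fall were steep enough to be called between neighbouring times. Of 72 steps of 4 h in the WT groups, 9 rises and 8 falls of a Period gene were called, where 0.334% and 0.311% of all genes were called on average. In the KO groups edgeR called 0 of 72 steps (0.0248% of all genes), and 8 had an unadjusted p under 0.05. The 9 rises were all the rise from ZT4 to ZT8, where 0.767% (Bmal1 WT AL), 0.45% (Bmal1 WT RF), 0.463% (Cry WT AL) and 0.729% (Cry WT RF) of all genes were called. Of the 8 falls, 6 were the fall from ZT20 to ZT0, where 0.0824%, 0.0254%, 0.019% and 0.247% were in these groups. Per3 rose from ZT4 to ZT8 by 3.41 ± 0.38 log2 (SE) in Bmal1 WT AL, 3.90 ± 0.39 in Bmal1 WT RF, 4.38 ± 0.39 in Cry WT AL and 4.37 ± 0.39 in Cry WT RF. Per1 rose in the same 4 h by 2.69 ± 0.62, 4.24 ± 0.68, 2.94 ± 0.63 and 3.78 ± 0.66 log2 in these groups. Per2 rose at that step by 2.35 ± 0.45 log2 in Bmal1 WT RF. Its rise of 1.31 ± 0.44 log2 in Bmal1 WT AL did not pass (adjusted p = 0.205). Per3 also fell from ZT20 to ZT0 in every WT group, by 2.81 ± 0.38 log2 in Bmal1 WT AL and 2.00 ± 0.36 in Bmal1 WT RF.

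In Bmal1 KO liver Per3 was lower on average than in WT, while the mean levels of Per1 and Per2 did not pass the test. Per3 lay between 4.61 and 11.4 CPM in the 12 Bmal1 KO AL libraries (median 7.87), against 1.61 to 65.6 CPM (median 21.7) in Bmal1 WT AL. Under RF it lay between 5.22 and 10.8 CPM in the KO and between 2.67 and 66.0 CPM in WT. All KO libraries thus sat inside the WT range, between the WT trough and the WT peak. Averaged over the 6 times, Per3 was lower in the KO by 0.87 ± 0.15 log2 (SE, n = 12 per group, adjusted p = 5.51e-06) under AL. Under RF it was lower by 1.34 ± 0.15 log2 (adjusted p = 1.35e-10). Of all genes, 24.4% were called under AL and 20.6% under RF, with 10.7% and 10% lower in the KO, and Per3 was the single Period gene called in each. Per1 differed by 0.01 ± 0.23 log2 under AL and 0.46 ± 0.24 under RF (adjusted p = 0.988 and 0.184). Per2 differed by 0.34 ± 0.17 and -0.06 ± 0.17 log2 (adjusted p = 0.154 and 0.853). The lower Alb level of the Bmal1 KO libraries, and with it the lower sum of the 8 hepatocyte markers, of which 2 (AL) and 1 (RF) were called lower, moved with the Per3 result, and their part in it was not tested.

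The knockout effects were also tested at each hour. Over both lines 19 of 72 effects were called as higher and 7 as lower in the KO, where 1.02% and 0.867% of all genes were on average, and 14 more had an unadjusted p under 0.05. Per3 was lower in the KO at ZT8, ZT12 and ZT16 under both regimens, and at ZT20 under RF. The deficit was -2.88 ± 0.37 log2 at ZT8 and -2.88 ± 0.36 at ZT12 under AL, and -3.02 ± 0.36 and -3.24 ± 0.37 under RF, where 3.17%, 6.9%, 3.4% and 6.1% of all genes were called. At ZT16 under AL 3.65% of all genes were called, and at ZT16 and ZT20 under RF 4.52% and 1.63%. At ZT8 under AL the KO libraries stood at 4.61 and 5.13 CPM and the WT libraries at 37.7 and 34.1 CPM. At ZT0 under AL the order was turned: Per3 was higher in the KO by 2.29 ± 0.38 log2 (adjusted p = 1.42e-04, with 0.907% of all genes called), with KO libraries at 11.4 and 8.56 CPM and WT libraries at 1.61 and 2.42 CPM. Per2 was also higher in the KO at ZT0 under AL, by 2.34 ± 0.44 log2 (adjusted p = 0.00107), with KO libraries at 64.5 and 52.3 CPM and WT libraries at 10.8 and 12.3 CPM. Under RF Per2 was higher at ZT4 by 1.72 ± 0.45 log2 (adjusted p = 0.0347, with 1.19% of all genes called), and Per1 was higher at ZT0 by 2.79 ± 0.62 log2 (adjusted p = 0.00795, with 1.28% called). With limma-voom the Per2 call at ZT4 and the Per3 call at ZT20 under RF were lost (adjusted p = 0.093 and 0.13). One of the 2 KO libraries behind that Per1 value, series 4 at 37.1 CPM, is the library with 7533 CPM of Saa1, and the other stood at 16.6 CPM against 3.91 and 3.75 CPM in WT.

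In Cry KO liver all 3 Period genes were higher on average than in WT. Per1 spanned 35.8 to 78.1 CPM (median 55.8) in Cry KO AL, against 1.77 to 67.1 CPM (median 18.5) in Cry WT AL. Under RF the KO spanned 50.7 to 127.7 CPM (median 74.2) and WT 1.47 to 89.1 CPM. No KO library was near the WT trough, and the upper parts of the ranges overlapped. Per1 was higher by 1.99 ± 0.24 log2 under AL (adjusted p = 8.91e-09) and 2.17 ± 0.25 under RF (2.32e-09). Per3 was higher by 1.74 ± 0.14 log2 (adjusted p = 6.29e-14) and 1.78 ± 0.15 (7.06e-14). Per2 was higher by 0.86 ± 0.17 log2 (adjusted p = 1.42e-04) and 0.90 ± 0.17 (2.02e-04). These were 3 of 3 calls under each regimen, where 33% of all genes were called under AL and 6.3% under RF, 19.7% and 3.28% as higher in the KO. On the scale of mean CPM, Per2 averaged 65.6 ± 20.5 CPM (SD) in Cry KO AL and 49.5 ± 40.7 in Cry WT AL, and an exact permutation of genotype within each time gave p = 0.146 (two-sided, unadjusted). By the same permutation test Per3 was higher in Cry KO AL by 0.70 log2, with p = 0.0473, unadjusted over 24 tests. Cry KO AL also held 2 series that differed in Per2, with means of 82.3 CPM in series 1 and 48.9 CPM in series 2, and in Per3, with 56.6 and 36.1 CPM. Without series 1 the Per2 effect under AL was 0.36 log2 (adjusted p = 0.106), and the Per3 effect remained past the threshold.

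**Figure D2:**
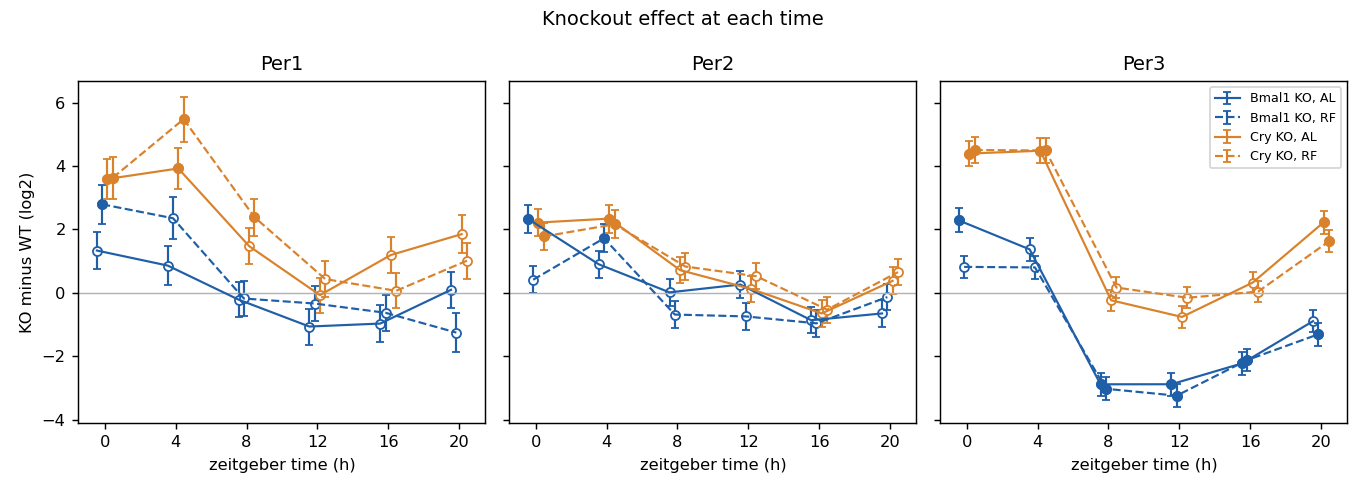
Knockout minus WT level (log2) of each Period gene at each zeitgeber time (h), Bmal1 line in blue and Cry line in orange, AL solid and RF dashed, with symbols shifted sideways so as not to hide each other. Bars are SEs and filled symbols have an adjusted p under 0.05. Filled Cry symbols stand at ZT0 and ZT4 for all 3 genes, and none stand at ZT12 or ZT16, whereas the filled Per3 symbols of the Bmal1 line at ZT8 to ZT16 are negative.

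The called Cry KO effects lay mainly in the hours when WT levels are low. All 3 genes were higher in the KO at ZT0 and at ZT4 under both regimens, where 0.995% and 1.01% of all genes were called under AL and 0.697% and 1.2% under RF. At ZT4 under RF, Per1 stood at 86.4 and 65.2 CPM in the KO and 1.89 and 1.47 CPM in WT, a difference of 5.48 ± 0.71 log2 (adjusted p = 6.30e-07). At that time under RF the KO libraries include the shallowest of all and the one highest in Ctrb1, and under AL, with neither, the difference was 3.92 ± 0.65 log2. Per3 differed at ZT4 by 4.48 ± 0.40 log2 under AL and 4.49 ± 0.40 under RF, and Per2 by 2.34 ± 0.44 and 2.16 ± 0.45. Per3 was also higher at ZT20, by 2.22 ± 0.36 log2 under AL and 1.63 ± 0.34 under RF, where 0.469% and 0.361% of all genes were called. Per1 was higher at ZT8 under RF by 2.39 ± 0.58 log2 (0.9% of all genes called). At ZT12 and ZT16, near the WT peaks, 0 of the 12 effects of the 3 genes were called. Of all genes 1.56% (AL) and 1.65% (RF) were called at ZT12, and 0.114% and 0.209% at ZT16. The count of 0 is near those shares and is not read as a lack of effect. Per1 at ZT16 and Per3 at ZT12 under AL had unadjusted p of 0.0394 and 0.0268. For Per2 at ZT16 under RF, KO libraries stood at 102 and 115 CPM and WT libraries at 154 and 160 CPM, a difference of -0.53 ± 0.41 log2.

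The knockout effects of the lines were compared directly. The Cry KO effect exceeded the Bmal1 KO effect by 3.12 ± 0.21 log2 for Per3 under RF (adjusted p = 5.96e-18) and 2.61 ± 0.20 under AL (3.32e-15). For Per1 the difference was 1.71 ± 0.34 log2 under RF (adjusted p = 1.54e-04) and 1.98 ± 0.33 under AL (5.55e-06). For Per2 it was 0.97 ± 0.24 log2 under RF (adjusted p = 0.00295) and 0.52 ± 0.24 under AL (0.079). These were 3 of 3 calls under RF, where 15.2% of all genes were called (7.39% upward), and 2 of 3 under AL, where 40.8% were (20.7% upward). The knockout effects did not pass the test of a difference between RF and AL for any Period gene in either line; the nearest was Per3 in the Bmal1 line, at -0.47 ± 0.20 log2 (adjusted p = 0.708). For this difference 0% of all genes were called in the Bmal1 line and 6.33% in the Cry line. The WT groups of the lines did not differ past the threshold in any Period gene under AL or RF, where 20.5% and 0.856% of all genes were called.

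In the order of levels, averaged on the log scale over the day, Cry KO RF and Cry KO AL came first for every Period gene. For Per1 the geometric means were 76.9 CPM in Cry KO RF, 54.9 in Cry KO AL, 20.6 in Bmal1 KO RF, 17.2 in Cry WT RF, 15.9 in Bmal1 KO AL, 15.4 in Bmal1 WT RF, 14.7 in Bmal1 WT AL and 13.1 in Cry WT AL. Of the neighbours in that order, Cry KO AL and Bmal1 KO RF differed (1.32 ± 0.24 log2, adjusted p = 7.45e-06), and the other 6 pairs did not pass. For Per2 they were 88.9 in Cry KO RF, 62.4 in Cry KO AL and 45.8 CPM in Cry WT RF, followed by the other 5 groups between 29.4 and 36.5 CPM. Cry KO AL and Cry WT RF were the single pair of neighbours to pass (adjusted p = 0.0362). Per3 fell into 3 tiers: 56.6 and 44.8 CPM in Cry KO, 13.1 to 19.5 CPM in the 4 WT groups, and 7.55 and 7.35 CPM in Bmal1 KO RF and AL. The steps between tiers passed (adjusted p = 1.52e-09 and 1.89e-05) and those between neighbours within a tier did not. Within the WT tier, Bmal1 WT RF, the highest, differed from groups that are not its neighbours, by 0.54 ± 0.14 log2 from Bmal1 WT AL (adjusted p = 0.00989) and by 0.50 ± 0.14 from Cry WT AL (adjusted p = 0.0319). Per kilobase of merged exon, arithmetic mean levels ran from 3.16 to 14.4 CPM per kb for Per1, 6.22 to 15.7 for Per2 and 0.787 to 6.15 for Per3 over the 8 groups.

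By edgeR's test a change of mean level with night feeding was called for 1 Period gene in 1 group. Per3 was higher under RF than AL in Bmal1 WT by 0.54 ± 0.14 log2 (adjusted p = 0.00989), with 31.6 ± 24.8 CPM (SD) under RF and 23.4 ± 20.1 under AL and wide overlap of libraries. It was 1 of 3 genes called, where 15.7% of all genes were (9.33% as higher). The call was lost without Bmal1 WT AL series 1 (0.56 log2, adjusted p = 0.067) and without Bmal1 WT RF series 2 (0.37 log2, adjusted p = 0.213). No Period gene was called between RF and AL in Bmal1 KO (0.545% of all genes called), Cry WT (1.59%) or Cry KO (18.2%). In Cry KO all 3 leaned upward under RF, by 0.48 ± 0.23 log2 for Per1, 0.44 ± 0.17 for Per2 and 0.31 ± 0.14 for Per3, with adjusted p of 0.138, 0.062 and 0.103. The exact permutation test of mean CPM, unadjusted over 24 tests, gave these genes p = 0.00682, 0.00287 and 0.0343 in Cry KO. Without Cry KO AL series 1 the values for Per2 and Per3 were 0.95 and 0.73 log2, with adjusted p of 1.31e-04 and 1.46e-04. At single times, 0 of 72 feeding effects of the 3 genes were called by edgeR's test and 8 had an unadjusted p under 0.05. Over these contrasts 0.0312% of all genes were called. The 8 values with an unadjusted p under 0.05 were all higher under RF, at ZT0 and at other times. Among them was Per2 in Cry WT at ZT0, with 33.4 and 35.3 CPM under RF and 12.3 and 14.9 CPM under AL. Another was Per1 in Cry WT at ZT20, higher by 1.28 ± 0.57 log2. The share of all genes with such an unadjusted p was not counted.

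Few rhythms of the Period genes were called in the knockouts by the cosine test. Of 12 pairs of a Period gene and a KO group, 1 was called: Per2 in Bmal1 KO RF, where 5.26% of all genes were called. In the other KO groups 0.0317% (Bmal1 KO AL), 0% (Cry KO AL) and 6.63% (Cry KO RF) of all genes were called. Per2 in Bmal1 KO RF stood at 35.0 and 38.7 CPM at ZT0, 23.6 and 18.4 at ZT4, 18.6 and 21.8 at ZT8, 32.2 and 36.2 at ZT12, 42.0 and 71.4 at ZT16 and 49.6 and 49.4 at ZT20. All 4 libraries at ZT4 and ZT8 were below the other 8. The fitted range was 1.58 ± 0.39 log2, or 2.99-fold, with a peak at ZT 18.1 ± 0.93 h (adjusted p = 0.0231). Each series showed it, with ranges of 1.30 and 1.79 log2 and peaks at ZT 18.8 and 17.6. The adjusted p was 0.111 without series 2 and 0.759 without series 4, which leaves a single series, 0.0741 for any difference between times and 0.0638 with a 12 h term added. It was 0.0532 without the 7 libraries that stand apart, of which series 4 holds those at ZT0 and ZT20. The WT peak of Per2 under RF was at ZT 15.8 ± 0.48 h, and the test of the difference in rhythm between Bmal1 KO and WT did not pass (adjusted p = 0.112, with 1.32% of all genes called).

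**Figure D3:**
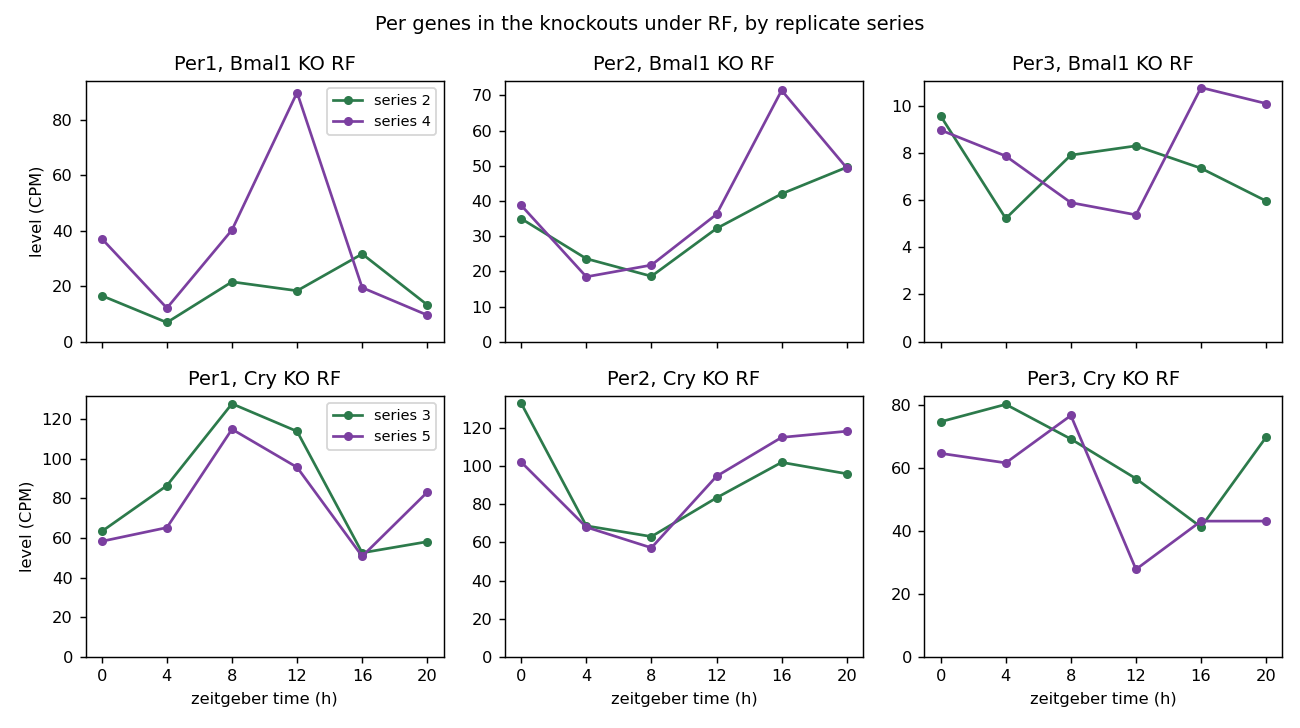
Level (CPM) of each Period gene against zeitgeber time (h) in Bmal1 KO RF (top) and Cry KO RF (bottom), with 1 line for each replicate series and a point for each library. Per2 of Bmal1 KO RF has its lowest points at ZT4 or ZT8 in both series, while the Per1 level of 89.7 CPM at ZT12 stands in series 4 alone.

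Other traces of a daily course in the knockouts did not pass the test. Per1 in Bmal1 KO RF had a fitted range of 1.40 ± 0.60 log2 with a peak at ZT 11.9 ± 1.6 h (adjusted p = 0.224), and its level at ZT12 was 18.3 CPM in series 2 and 89.7 CPM in series 4. With any difference between times tested in place of a cosine its adjusted p was 0.0314, and with a 12 h term 0.0234. Per2 in Bmal1 KO AL had a range of 1.16 ± 0.38 log2 (adjusted p = 0.768) with a peak at ZT 18.0 ± 1.3 h, close in hour to that under RF, and the rhythms under RF and AL were not shown to differ (adjusted p = 1). Per2 in Cry KO RF was lowest at ZT8 (63.1 and 57.2 CPM) and highest at ZT0 (133 and 102 CPM) by mean. Its range was 0.93 ± 0.38 log2, its peak at ZT 19.4 ± 1.6 h and its adjusted p 0.274, or 0.0247 when the group was fitted alone. Per1 in Cry KO RF was highest at ZT8 in both series, at 128 and 115 CPM, and lowest at ZT16, at 52.5 and 50.7 CPM (range 0.95 ± 0.58 log2, adjusted p = 0.523). Per3 had ranges of 0.41 to 0.88 log2 over the 4 KO groups, with SEs of 0.47 to 0.51 and peak times with errors of 2.0 to 4.4 h.

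**Figure D4:**
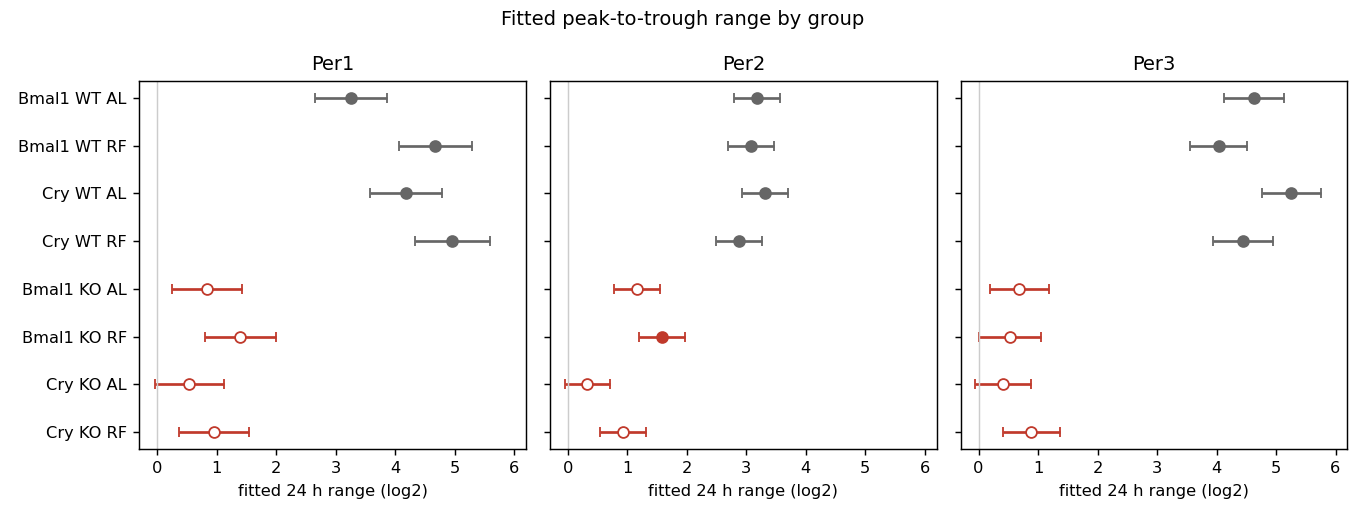
Fitted 24 h peak-to-trough range (log2, with SE bars) of Per1, Per2 and Per3 in the 4 WT groups (grey) and 4 KO groups (red). Filled symbols are called rhythms, which are all 12 WT symbols and, among the KO symbols, Per2 in Bmal1 KO RF alone.

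The differences in rhythm were tested in the same fit. The test took both cosine terms together, so its p covers range and peak time. The change of range alone was not tested. Per3 differed in all 4 knockout comparisons. Its fitted range was smaller in the KO by 3.95 log2 in the Bmal1 line under AL (adjusted p = 7.79e-06) and 3.51 under RF (5.39e-04). In the Cry line it was smaller by 4.85 log2 under AL (4.46e-07) and 3.56 under RF (4.56e-05). Per1 and Per2 differed in the Cry line. The fitted range of Per1 was smaller in the KO by 3.64 log2 under AL and 4.01 under RF (adjusted p = 0.031 and 0.00224). That of Per2 was smaller by 2.98 and 1.95 log2 (0.00113 and 0.0164). In the Cry line these were 3 of 3 calls each, where 0.913% (AL) and 2.66% (RF) of all genes were called, and in the Bmal1 line 1 of 3 each, where 0.767% (AL) were. For Per1 and Per2 the Bmal1 comparisons gave smaller fitted ranges in the KO but did not pass, with adjusted p of 0.587 and 0.0599 under AL and 0.0921 and 0.112 under RF. These misses depended on the method: Per2 under AL passed with limma-voom (adjusted p = 0.0224) and with a mean per time in place of the cosine (0.00739). Per1 under RF passed with a mean per time (0.00596). Without the filter on low counts all 4 passed, as did many other comparisons of the Period genes, at nearly the same values. The share of all genes called in these alternative fits was not counted. The passes without the filter are therefore not read as particular to these 4 comparisons. The Per1 call in the Cry line under AL and the Per2 call under RF were lost whenever any 1 of the 4 series was left out, with adjusted p of 0.154 to 0.26 and 0.0875 to 0.259, and the Per1 call under RF and the Per2 call under AL were each lost in 2 of 4 such fits. The 4 Per3 calls were kept in every fit that left out 1 series. Feeding gave no called difference of rhythm for any Period gene in any of the 4 genotypes, where 0.0127% (Bmal1 WT), 0% (Bmal1 KO), 0.0888% (Cry WT) and 0% (Cry KO) of all genes were called.

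The genes whose pattern was most like each Period gene were ranked by Pearson's r of mean log2 CPM over the 48 cells of group and time, among 9460 genes with a mean of at least 5 CPM. These cells share libraries, sequencing depth and time points, so r is a description. For Per1 the first 5 were Usp2 (a ubiquitin protease, r = 0.954), Wee1 (a cell cycle kinase, 0.901), Tef (0.867), Bhlhe40 (an E-box repressor, 0.841) and Igfbp4 (0.839). For Per3 they were Wee1 (0.956), Ciart (a repressor of CLOCK and BMAL1, 0.946), Tef (0.945), Usp2 (0.940) and Dbp (0.883). The first 5 of Per2 shared Bhlhe40 with those of Per1 and no gene with those of Per3, and were Marveld1 (0.866), Plekha8 (0.854), Bhlhe40 (0.847), the nuclear receptor gene Esrra (0.841) and Tsku (0.841). Among the Period genes r was 0.851 for Per1 with Per3, 0.795 for Per1 with Per2 and 0.739 for Per2 with Per3. In Cry KO RF, where Per2 missed the threshold, its first companion Marveld1 was called rhythmic, with a range of 0.70 ± 0.17 log2 and a peak at ZT 17.1 ± 0.92 h (adjusted p = 0.0149). Marveld1 was chosen for its likeness to Per2 over cells that include this group. Its call is therefore not separate evidence of a Per2 rhythm there.

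The other genes of the loop changed with the Period genes in part. Of the 4 D-box factor genes, which include the activators Dbp, Tef and Hlf, 4 were rhythmic in each WT group, where 6.67% to 18.9% of all genes were. In each KO group 0 were, where 0% to 6.63% of all genes were. That count of 0 is near the share and is not read as a result about these genes. In Cry KO 3 of 4 were higher than WT under AL and RF, where 19.7% and 3.28% of all genes were, with Dbp up by 3.49 ± 0.20 and 2.80 ± 0.20 log2 and Tef by 1.09 ± 0.08 and 0.99 ± 0.08. In Bmal1 KO 1 of the 4 was lower and 0 higher under AL, and 3 were lower and 1 higher under RF, where 10.7% and 10% of all genes were lower. Dbp was lower by 1.84 ± 0.22 log2 under AL and 2.10 ± 0.21 under RF. The directions for Dbp were thus those of Per3 in both lines. Of 7 other E-box repressors and REV-ERB or ROR receptors, 4 were lower in Bmal1 KO under each regimen, with 2 (AL) and 1 (RF) higher, and 6 were higher in Cry KO under each, beside the shares of all genes just given, with Ciart lower by 2.80 ± 0.28 log2 in Bmal1 KO AL and higher by 3.42 ± 0.22 in Cry KO AL. Their median effect was -2.55 log2 in Bmal1 KO AL and 1.56 in Cry KO AL, against 0.02 and -0.03 over all genes. Of the 4 clock activators 3 were rhythmic in each WT group, where 6.67% to 18.9% of all genes were. In each KO group 0 were, which is again near the share of 0% to 6.63%. Cry1, whose protein binds the PER proteins, was higher in Bmal1 KO by 1.80 ± 0.11 log2 under AL and 1.86 ± 0.11 under RF.

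Genes for proteins that act on PER showed small effects. Of 18 genes for PER kinases, phosphatases and ubiquitin ligase adaptors, 5 were higher and 1 lower in Bmal1 KO AL, and 2 were higher and 4 lower in Cry KO AL, with median effects of 0.06 and -0.03 log2. Of all genes 24.4% and 33% were called in these comparisons, so the counts are near that share. Csnk1d, a casein kinase that phosphorylates PER, was higher in Bmal1 KO RF by 0.20 ± 0.05 log2. In the KO groups under RF, where 5.26% (Bmal1) and 6.63% (Cry) of all genes were rhythmic, 3 of these 18 were in each line, among them Csnk2a2 in Bmal1 KO RF (0.78 ± 0.12 log2, peak ZT 10.8 ± 0.60 h). Of 12 genes for partners of the PER complex or of its mRNAs 0 were rhythmic in either KO group under RF. That is near the shares of all genes just given and is not read as a result about these genes. Sfpq, for an RNA-binding partner of the complex, had an adjusted p of 0.0696 in Bmal1 KO RF.

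Targets of the outside signals that reach Per1 and Per2 were counted in the knockouts, where the share of all genes called rhythmic was 5.26% in Bmal1 KO RF and 6.63% in Cry KO RF. Of 14 HSF1 targets, 5 were called in Bmal1 KO RF and 8 in Cry KO RF. Under AL 0 were called in either KO, where 0.0317% (Bmal1) and 0% (Cry) of all genes were, so that count says nothing about these targets. Their median range was 1.10 and 1.53 log2 under RF and 0.75 and 1.23 under AL, against 0.41 and 0.46, and 0.29 and 0.33, over all genes. Hsph1 and Hspa8, heat shock chaperone genes, peaked at ZT 17.6 ± 0.72 and 16.5 ± 0.78 h in Bmal1 KO RF, and Chordc1 at ZT 17.9 ± 0.82 h. These are members named for a small p, and peak times are not given for all the targets called. In Cry KO RF the count of HSF1 targets was 3 of 14 without the libraries that stand apart, that of glucocorticoid targets 1 and that of CREB and fasting targets 0. The share of all genes called without those libraries was not counted. These lower counts are therefore not read as a change in the targets themselves. The matching counts of Bmal1 KO RF are not given here. Of 14 glucocorticoid targets 3 were called in Bmal1 KO RF, namely Lpin1, Lcn2 and Klf9, and 2 in Cry KO RF. Klf9 peaked at ZT 9.8 ± 1.0 h in Bmal1 KO RF and 7.1 ± 0.82 h in Cry KO RF. Of 14 targets of CREB and fasting 1 was called in Bmal1 KO RF, Crem with a peak at ZT 17.9 ± 0.97 h, and 2 in Cry KO RF, so few that they are not read as a result beside those shares. Of 12 targets of serum response factor 2 were called in each, the actin genes Actb and Actg1. Whether any of these signals acts on Per1 or Per2 here was not tested.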

How the data were processed

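The 96 liver mRNA libraries were made with the TruSeq Stranded mRNA kit from 250 ng of RNA, per the labels' protocols. The deposited table holds the authors' raw counts per gene, aligned with STAR 2.4.0i to mm10 per the submitters' processing notes. For the counting program, its strand setting and the annotation nothing is given in the sources used here. Groups, times and replicate numbers came from the labels. Genes were kept with edgeR's filter (minimum count 10, total 15), which left 15772 of 35670 genes with any count and 99.94% of counts, and scaled by TMM. Tests used edgeR 4.0.16's quasi-likelihood method in R 4.3.3 on all 96 libraries, with a mean per group and time or a 24 h cosine per group, and Benjamini-Hochberg adjustment over all genes within each contrast. Total counts ran from 1478963 to 35568856, so a level of 5 CPM rests on 7.39 counts in the shallowest library. Alternatives were other scaling, no filter, DESeq2 1.42.0, limma-voom 3.58.1, other models of time, a replicate block, an exact permutation test and left-out libraries. The fits were tested on simulated data.

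The text names the 3 Period genes in full, the targeted genes, the 5 genes most like each by Pearson's r, and up to 4 members per list with the smallest p in the knockout rhythms under RF or in the knockout effect. The members and lists were chosen with earlier results of these data known.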

Additional observations from a re-analysis of the deposited data

Results flagged for a closer look

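The knockout effect on the mean level differed between the Cry and the Bmal1 line, in a direct test of the difference by edgeR with Benjamini-Hochberg adjustment, for 5 of 6 pairs of a Period gene and a feeding regimen. The Cry effect minus the Bmal1 effect was 1.98 log2 (Per1) and 2.61 log2 (Per3) under AL. Under RF it was 1.71 log2 (Per1), 0.97 log2 (Per2) and 3.12 log2 (Per3). Each of the 5 kept its direction and its call in all 8 fits that left out 1 replicate series.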

How the results depend on the processing

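The Per3 knockout effects on the mean level and the 4 Per3 differences in rhythm between KO and WT kept direction and call under every alternative run, as did the Per1 mean-level effects in Cry KO. For Per3 in Cry KO AL the exact permutation test gave 0.70 log2 with an unadjusted p of 0.0473, close to the threshold. Values below are log2, the sign changes concern values that were not called, the exact permutation p is unadjusted, and the cause was not tested. A call beside a difference in range is that of the joint test of both cosine terms. With DESeq2, calls were gained for Per2 RF minus AL Cry KO (mean, 0.46). With DESeq2, the sign changed for Per1 Bmal1 KO minus WT AL (mean, -0.0047). On arithmetic mean CPM with the exact permutation test, calls were gained for Per1 RF minus AL Cry KO (mean, 0.53), Per1 RF minus AL Cry WT (mean, 0.49), Per2 RF minus AL Cry KO (mean, 0.49) and Per3 RF minus AL Cry KO (mean, 0.35). On arithmetic mean CPM with the exact permutation test, calls were lost for Per2 Cry KO minus WT AL (mean, 0.41). On arithmetic mean CPM with the exact permutation test, the sign changed for Per1 Bmal1 KO minus WT AL (mean, -0.35), Per1 Bmal1 KO minus WT RF (mean, -0.14) and Per1 RF minus AL Bmal1 WT (mean, 0.36). With the compared groups fitted alone, calls were gained for Per1 RF minus AL Cry KO (mean, 0.49). With the compared groups fitted alone, the sign changed for Per1 Bmal1 KO minus WT AL (mean, -0.0014) and Per1 RF minus AL Bmal1 WT (mean, 0.00013). Without the 3 shallow libraries, calls were gained for Per2 KO effect Cry minus Bmal1 AL (mean, 0.62). Without the 3 shallow libraries, the sign changed for Per1 Bmal1 KO minus WT AL (mean, -0.0032), Per2 Cry KO effect RF minus AL (mean, -0.032) and Per3 Cry KO effect RF minus AL (mean, -0.051). Without the filter on low counts, calls were gained for Per1 Bmal1 KO minus WT RF (mean, 0.44), Per1 RF minus AL Bmal1 KO (mean, 0.40), Per1 RF minus AL Cry KO (mean, 0.48) and Per2 Bmal1 KO minus WT AL (mean, 0.33). It was the same for Per2 KO effect Cry minus Bmal1 AL (mean, 0.52), Per2 RF minus AL Cry KO (mean, 0.44), Per2 RF minus AL Cry WT (mean, 0.39) and Per2 WT Cry minus Bmal1 line RF (mean, 0.44). So too for Per3 RF minus AL Cry KO (mean, 0.31), Per1 Bmal1 KO AL (24 h range, 0.84), Per1 Bmal1 KO RF (24 h range, 1.49) and Per1 Cry KO RF (24 h range, 0.93). Further cases were Per2 Bmal1 KO AL (24 h range, 1.17), Per2 Cry KO RF (24 h range, 0.96), Per3 Cry KO RF (24 h range, 0.87) and Per1 Bmal1 KO minus WT AL (difference in range, -2.42). Added to these were Per1 Bmal1 KO minus WT RF (difference in range, -3.17), Per1 RF minus AL Bmal1 WT (difference in range, 1.40), Per1 RF minus AL Cry KO (difference in range, 0.40) and Per1 RF minus AL Cry WT (difference in range, 0.78). Others were Per2 Bmal1 KO minus WT AL (difference in range, -2.01), Per2 Bmal1 KO minus WT RF (difference in range, -1.52) and Per2 RF minus AL Cry WT (difference in range, -0.42). The share of all genes called without the filter was not counted. With limma-voom, calls were gained for Per2 Bmal1 KO minus WT AL (difference in range, -2.12). With limma-voom, the sign changed for Per1 RF minus AL Bmal1 WT (mean, 0.16), Per1 RF minus AL Cry WT ZT0 (-0.039), Per2 step in Bmal1 KO AL ZT12 to ZT16 (0.16) and Per2 step in Cry KO AL ZT0 to ZT4 (0.14). It was the same for Per2 step in Cry KO AL ZT20 to ZT0 (-0.23), Per3 step in Bmal1 KO RF ZT16 to ZT20 (0.041), Per3 step in Bmal1 KO RF ZT8 to ZT12 (0.0048) and Per3 step in Cry KO AL ZT20 to ZT0 (-0.10). So too for Per3 step in Cry KO RF ZT0 to ZT4 (-0.040). Without the 7 libraries that stand apart, calls were lost for Per2 Bmal1 KO RF (24 h range, 1.65) and Per1 Cry KO minus WT AL (difference in range, -3.49). Without the 7 libraries that stand apart, the sign changed for Per3 RF minus AL Bmal1 KO (mean, -0.0057). With 24 h and 12 h cosines, calls were gained for Per1 Bmal1 KO RF (range of the fitted curve, 2.53). With 24 h and 12 h cosines, calls were lost for Per2 Bmal1 KO RF (range of the fitted curve, 1.60). With a mean per time in place of the cosine, calls were gained for Per1 Bmal1 KO RF (highest minus lowest time mean, 2.51), Per1 Bmal1 KO minus WT RF (difference in that distance, -2.69) and Per2 Bmal1 KO minus WT AL (difference in that distance, -1.53). With a mean per time in place of the cosine, calls were lost for Per2 Bmal1 KO RF (highest minus lowest time mean, 1.49). With a mean per time in place of the cosine, the sign changed for Per2 RF minus AL Bmal1 KO (difference in that distance, -0.13), Per2 RF minus AL Bmal1 WT (difference in that distance, 0.96) and Per2 RF minus AL Cry WT (difference in that distance, 0.072). With the group fitted alone, calls were gained for Per2 Cry KO RF (24 h range, 0.91). With the replicate number as a block, calls were gained for Per2 Bmal1 KO minus WT AL (difference in range, -2.01). With RLE size factors, the sign changed for Per2 step in Cry KO AL ZT0 to ZT4 (0.00089) and Per2 step in Cry KO AL ZT20 to ZT0 (-0.0069). Leaving out 1 replicate series in turn gave a lost or gained call or a change of sign, with these log2 ranges, for Per1 Bmal1 WT AL (24 h range, 2.55 to 4.69), Per1 Cry KO minus WT AL (difference in range, -3.76 to -3.42), Per1 Cry KO minus WT RF (difference in range, -4.30 to -3.70) and Per1 RF minus AL Bmal1 WT (difference in range, -0.022 to 2.13). Further ranges were those of Per1 Bmal1 KO effect RF minus AL (mean, -0.19 to 0.79), Per1 Bmal1 KO minus WT AL (mean, -0.33 to 0.64), Per1 Cry KO effect RF minus AL (mean, -0.12 to 0.33) and Per1 RF minus AL Bmal1 KO (mean, -0.017 to 0.66). Others were those of Per1 RF minus AL Bmal1 WT (mean, -0.36 to 0.62), Per1 WT Cry minus Bmal1 line AL (mean, -0.58 to 0.42), Per1 WT Cry minus Bmal1 line RF (mean, -0.013 to 0.28) and Per2 Bmal1 KO RF (24 h range, 1.31 to 1.84). To these come Per2 Cry KO minus WT AL (difference in range, -3.22 to -2.74), Per2 Cry KO minus WT RF (difference in range, -2.13 to -1.79), Per2 RF minus AL Bmal1 KO (difference in range, -0.16 to 0.68) and Per2 RF minus AL Bmal1 WT (difference in range, -0.86 to 0.78). Next are Per2 Bmal1 KO minus WT RF (mean, -0.16 to 0.098), Per2 Cry KO effect RF minus AL (mean, -0.27 to 0.54), Per2 Cry KO minus WT AL (mean, 0.36 to 1.18) and Per2 KO effect Cry minus Bmal1 AL (mean, 0.035 to 0.84). Also in this set are Per2 RF minus AL Cry KO (mean, 0.12 to 0.95), Per3 RF minus AL Bmal1 KO (difference in range, -0.55 to 0.21), Per3 RF minus AL Bmal1 WT (difference in range, -1.35 to 0.14) and Per3 Cry KO effect RF minus AL (mean, -0.23 to 0.45). There follow Per3 RF minus AL Bmal1 KO (mean, -0.035 to 0.10), Per3 RF minus AL Bmal1 WT (mean, 0.37 to 0.68), Per3 RF minus AL Cry KO (mean, 0.042 to 0.73) and Per3 WT Cry minus Bmal1 line AL (mean, -0.059 to 0.090). Last are Per3 WT Cry minus Bmal1 line RF (mean, -0.46 to 0.019). No label says that a replicate number marks a shared animal or batch. In the Bmal1 line deviations of same-numbered KO and WT libraries correlated at -0.073 to 0.22 by time and at 0.18 (AL) and 0.22 (RF) over all times, so a shared source was not shown, and the block in the mean-level tests moved no call (Per3 -0.88 under AL and -1.35 under RF). No paired analysis was possible in the Cry line because its WT and KO share fewer than 2 numbers. In a fit without 1 series that group keeps 1 library per time and is assumed to vary like the others. With 2 libraries per group and time, effects at single times and 4 h steps are limited by that number, and they were not refitted without a series.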
